A study of Mus musculus with 10 samples.

Results

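The Hoxd cluster, the run of 9 Hox genes on mouse chromosome 2, was followed through H3K27me3 peak lists of 5 lymphoma lines. The genes were taken by symbol (Hoxd1, Hoxd3, Hoxd4, Hoxd8, Hoxd9, Hoxd10, Hoxd11, Hoxd12 and Hoxd13) and are 9 of 22367 protein-coding genes and 9 of 37273 genes of all types in the annotation used. All 5 lines are cultured B cells of C57BL/6J origin that carry Eμ-Myc, a Myc transgene driven by an immunoglobulin heavy chain enhancer, and are Cdkn2a-/-. Lines R100, R500, R1000 and R4000 were derived from the parental line by raising the dose of mafosfamide, an alkylating agent, to 100, 500, 1000 and 4000 nM, and were harvested after 10, 18, 23 and 37 days. All lines share 1 starting line and were grown without drug before chromatin was taken. Dose and time in culture rise together and cannot be told apart. Each line has 1 peak list, so that replicate error is unknown and the lines were compared without a test. Gene expression and the DNA methylation samples of the series were not analysed here.

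H3K27me3 is the trimethyl mark that Polycomb repressive complex 2 places on histone H3, and it typically covers silent developmental genes in broad domains, with CpG-rich DNA as the usual site of recruitment. Hox genes encode homeodomain transcription factors that set position along the body axis, and they lie in clusters whose order matches the order of their expression in the embryo. In the Hoxd cluster the genes from Hoxd9 to Hoxd13, at the 5′ end, act in the posterior trunk, limbs and genitalia, whereas those from Hoxd1 to Hoxd4, at the 3′ end, act in the hindbrain and neck. The cluster is a classical Polycomb target, and in blood cells it is for the most part silent.

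The lists differ in size, and this bears on each count that follows. The parental list covers 1.63 Mb, the R100 list 5.04 Mb, the R500 list 4.53 Mb, the R1000 list 1.61 Mb and the R4000 list 1.07 Mb. A list gives only the start and end of each peak, on a grid of 50 bp of mm9 (NCBIM37), and no height, score or read count, so that the depth is unknown and a stretch without a peak may hold the mark below the calling limit. As for the identity of the cells, peaks covered 0, 5, 6, 2 and 2 of 12 B-cell marker genes in the parental, R100, R500, R1000 and R4000 lines 0 of 4 myeloid marker genes in each line, 1, 2, 3, 0 and 0 of 4 T-cell marker genes and 0, 1, 1, 1 and 1 of 3 stromal marker genes. By the same rule, at least 150 bp in the gene and its 5 kb upstream, 7.67, 21.7, 17, 8.87 and 7.05% of all coding genes were covered. H3K27me3 lists do not give expression, and the part of cell identity in the results on Hoxd was not tested.

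The sequences that follow are the stretches on which the comparison of lines turns, read from NCBIM37 on the plus strand, from which all 9 genes are transcribed. Capitals mark CpG dinucleotides. The first is the only stretch of the cluster with a peak in all 4 resistant lines and none in the parental line, and it lies at chr2:74525751-74525850, across the 3′ end of a non-coding Hoxd11 transcript, where 48 of its 100 bp are exonic.
Hoxd11 3′ end: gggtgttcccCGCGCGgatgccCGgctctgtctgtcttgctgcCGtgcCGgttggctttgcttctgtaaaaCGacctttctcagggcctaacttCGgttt
The next stretch had a peak in every line but R4000 and lies between Hoxd11 and Hoxd10, at chr2:74528201-74528300, within the non-coding gene Gm20440.
Hoxd11 to Hoxd10: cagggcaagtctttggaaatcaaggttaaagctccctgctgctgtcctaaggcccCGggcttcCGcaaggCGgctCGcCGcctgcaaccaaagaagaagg
A stretch in an intron of Hoxd3, at chr2:74572551-74572600, had a peak in the same 4 lines and holds 0 CpG.
Hoxd3 intron: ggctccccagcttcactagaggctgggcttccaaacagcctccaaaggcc
The widest stretch covered in R100 and R500 and in no other line lies at chr2:74527151-74527450, upstream of Hoxd10, and holds 7 CpG.
Hoxd10 upstream: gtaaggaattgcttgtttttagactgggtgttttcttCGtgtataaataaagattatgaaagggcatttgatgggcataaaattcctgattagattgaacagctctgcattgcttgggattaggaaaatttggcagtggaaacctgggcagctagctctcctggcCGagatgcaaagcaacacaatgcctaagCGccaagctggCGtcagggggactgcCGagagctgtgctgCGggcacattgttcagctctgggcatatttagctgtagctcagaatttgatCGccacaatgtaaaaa
A stretch of the same kind in an intron of Hoxd3 lies at chr2:74573251-74573450 and holds 5 CpG.
Hoxd3 intron, R100 and R500: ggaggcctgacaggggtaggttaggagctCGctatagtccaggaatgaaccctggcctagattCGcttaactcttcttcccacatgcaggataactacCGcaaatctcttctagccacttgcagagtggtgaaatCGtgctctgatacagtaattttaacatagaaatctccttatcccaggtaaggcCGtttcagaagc
For comparison, 300 bp upstream of the transcription start site (TSS), from 400 to 101 bp before it, are given for 3 genes. At Hoxd11 (chr2:74517049-74517348) this stretch had peaks over 48 bp in the parental line, over all 300 bp in R100, over 0 bp in R500, over 148 bp in R1000 and over 0 bp in R4000.
Hoxd11 before the TSS: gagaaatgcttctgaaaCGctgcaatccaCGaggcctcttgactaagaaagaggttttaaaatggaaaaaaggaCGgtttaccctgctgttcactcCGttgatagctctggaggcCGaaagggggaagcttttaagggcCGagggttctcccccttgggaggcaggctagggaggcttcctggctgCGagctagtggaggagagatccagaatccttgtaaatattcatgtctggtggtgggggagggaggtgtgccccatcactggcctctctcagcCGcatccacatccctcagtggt
At Hoxd4 (chr2:74559635-74559934, in an intron of Hoxd3) and at Hoxd1 (chr2:74600637-74600936) the stretch had no peak in any of the 5 lines, with 5 and 14 CpG.
Hoxd4 before the TSS: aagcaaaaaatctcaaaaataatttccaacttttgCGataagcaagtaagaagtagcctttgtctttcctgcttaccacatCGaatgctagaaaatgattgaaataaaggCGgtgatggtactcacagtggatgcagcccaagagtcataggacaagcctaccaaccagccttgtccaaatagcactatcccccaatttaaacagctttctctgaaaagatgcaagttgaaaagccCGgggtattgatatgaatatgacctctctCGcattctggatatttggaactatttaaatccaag
Hoxd1 before the TSS: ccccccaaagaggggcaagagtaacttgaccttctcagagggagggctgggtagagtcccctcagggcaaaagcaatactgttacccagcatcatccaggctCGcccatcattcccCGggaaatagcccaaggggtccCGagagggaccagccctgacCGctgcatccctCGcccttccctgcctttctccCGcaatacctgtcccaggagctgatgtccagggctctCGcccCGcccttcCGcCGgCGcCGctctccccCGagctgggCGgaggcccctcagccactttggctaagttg

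The cluster as a whole gained peaks in R100 and R500 and held few in the parental, R1000 and R4000 lines. From 5 kb upstream of Hoxd13 to the end of Hoxd1 (chr2:74501367-74603200, 102 kb), peaks covered 1000 bp in the parental cells, against 8934 bp (R100), 9300 bp (R500), 2100 bp (R1000) and 400 bp (R4000). R100 and R500 lie far above the other lines and close to each other, and R4000 is the lowest. Relative to the parental line these are 8.93, 9.3, 2.1 and 0.4 times as much, whereas the whole lists changed 3.09, 2.78, 0.988 and 0.658 times. Divided by the change of the list, the cluster was at 2.9, 3.35 and 2.13 times the parental value in R100, R500 and R1000 and at 0.608 times in R4000.

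**Figure D1:**
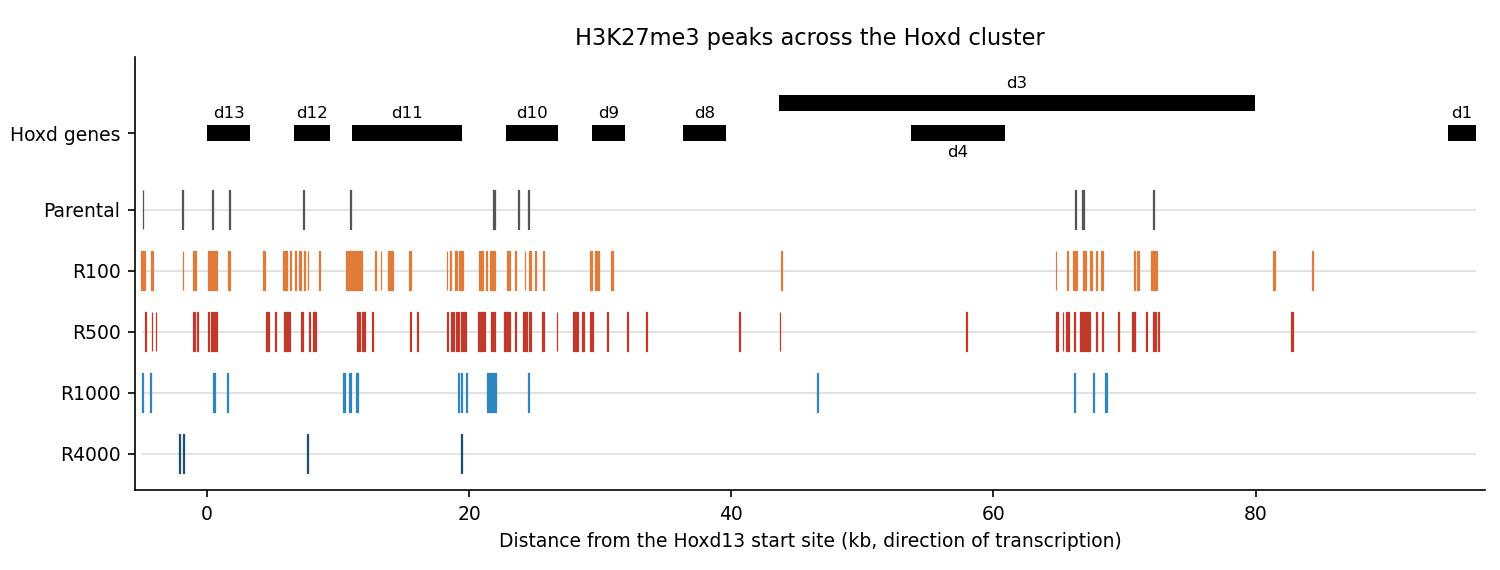
Positions of the H3K27me3 peaks in each line along the Hoxd cluster, in kb from the Hoxd13 TSS, with the genes as black bars (d13 stands for Hoxd13, and so on; each coloured bar is 1 peak). The 48 peaks of R100 and the 52 of R500 gather from Hoxd13 to Hoxd9 and in the 3′ part of Hoxd3, and the stretch between these groups is almost empty in every line.

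As listed, the peaks were narrow and scattered, and formed no broad domain. There were 12 (parental), 48 (R100), 52 (R500), 16 (R1000) and 4 (R4000) peaks, with a median width of 100, 125, 100, 100 and 100 bp. The widest was 150 bp in the parental cells, against 1150 bp (R100), 750 bp (R500), 650 bp (R1000) and 100 bp (R4000). The widest peak of R100 spans the TSS of Hoxd11, and the widest of R1000 lies between Hoxd11 and Hoxd10. The Hoxa cluster, by contrast, had peaks of up to 2800 bp (parental) and 4950 bp (R100). Of its 68 parental peaks 21 were 500 bp wide or more, against 0 of 12 in Hoxd. A narrow median was not particular to Hoxd, since each whole list also had a median width of 100 bp. In Hoxb and Hoxc the median was 100 bp in the parental line, and 100 and 250 bp in R100. Joining Hoxd peaks within 1000 bp of each other gave a covered length of 2150 bp (parental), 23634 bp (R100) and 25600 bp (R500). The narrowness matters for the comparison of lines. Each list was also reduced to its widest peaks until all covered 1.07 Mb. The R100 and R500 lists then held only peaks of at least 900 bp. R500, whose widest Hoxd peak was 750 bp, thus had to have 0 bp in the cluster. The R4000 list, the shortest, stayed whole and had 2.67 times the parental length, which was then 150 bp. Both turned the direction against the parental line, but the lists were cut at unlike widths, so this cannot decide the direction. With lists of equal number the 4 ratios were 7.78, 8.47, 2.4 and 0.533. These lists too were cut at unlike widths, with narrowest peaks of 200 bp (R100), 150 bp (R500) and 50 bp (parental, R1000 and R4000). Peaks of equal width were kept in order of chromosome name and position.

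By gene, covered length was counted in a window from 5 kb upstream of the TSS to the gene's end, and a gene was called covered at 150 bp or more, that is 3 bins of the grid. Of the 9 Hoxd genes, 5 were covered in the parental line, where 7.67% of all protein-coding genes were. The counts were 6 of 9 in R100 (21.7% of all coding genes), 7 of 9 in R500 (17%), 4 of 9 in R1000 (8.87%) and 1 of 9 in R4000 (7.05%). In R4000 the share of Hoxd genes, 1 of 9, is thus near that of all genes. The median gene of the cluster had 150, 965, 1164, 50 and 0 bp in the parental, R100, R500, R1000 and R4000 lines, and the median over all coding genes was 0 bp in each. Neighbouring windows overlap and share peaks, so the genes are not independent of each other. Counting each base for 1 gene only left 3 genes covered in the parental line.

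**Figure D2:**
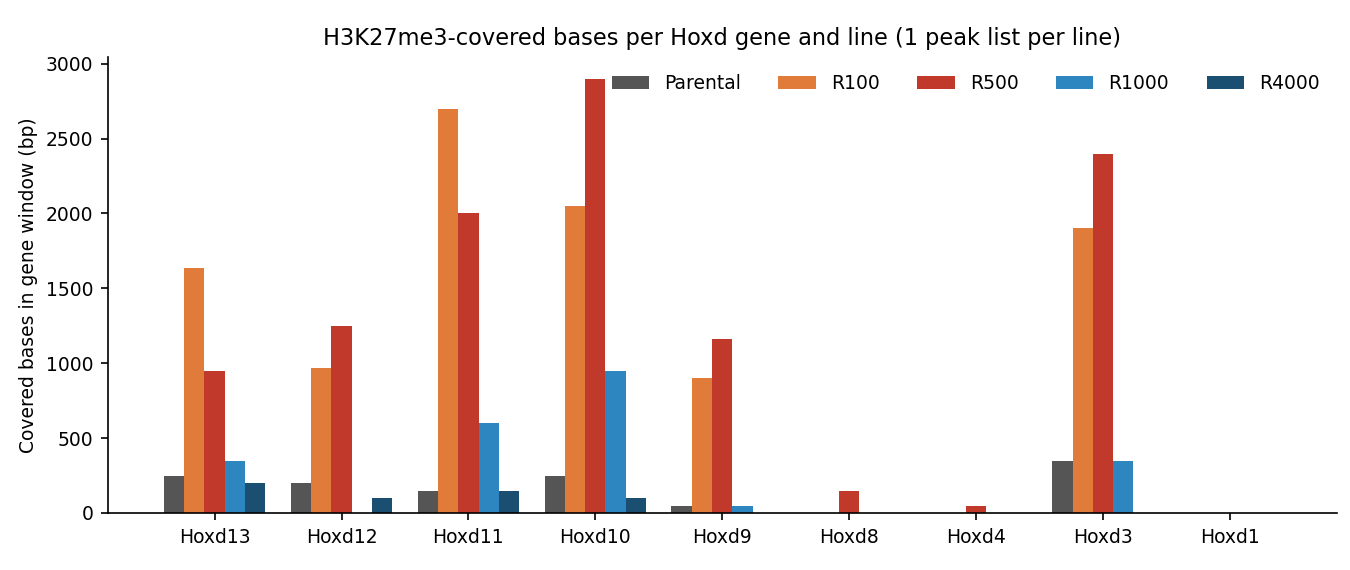
H3K27me3-covered bases (bp) in the window of each Hoxd gene, 1 bar per line and 1 peak list per bar, without error bars since each line has a single list. Hoxd13 to Hoxd9 and Hoxd3 have their highest bars in R100 or R500 (1164 to 2900 bp), and Hoxd8, Hoxd4 and Hoxd1 stay at 150 bp or less in every line.

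A gene was called higher than in the parental line where peaks covered at least 150 bp and at least 2 times the parental length, and lower where the parental line was covered and the resistant line had at most 0.5 times its length. In R100, 6 of 9 Hoxd genes were higher (19.1% of all coding genes) and 0 were lower (0.528%). In R500, 7 of 9 were higher (14.3%) and 0 lower (0.581%). In R1000, Hoxd11 and Hoxd10 were higher, 2 of 9 (3.83%), and Hoxd12 was lower, 1 of 9 (2.34%). In R4000, 0 of 9 were higher (2.63%), and Hoxd12, Hoxd10 and Hoxd3 were lower, 3 of 9 (4.11%). Lower calls rest on parental lengths of 200 to 350 bp, a few bins each. Under the reduction to equal covered length 1 gene was higher in R100 and 0 in R500. The cut at 900 bp left 1 Hoxd peak in R100 and could leave none in R500, so these counts cannot decide the direction.

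At the 5′ end, Hoxd13, which patterns the digits and the genital bud, was covered over 250 bp in the parental cells, against 1634 bp (R100), 950 bp (R500), 350 bp (R1000) and 200 bp (R4000). R100 was thus the highest line, at 6.54 times the parental length, and R500 was at 3.8 times. The gene (ENSMUSG00000001819.4) lies at chr2:74506367-74509656, and in R100 784 bp of its coverage lay upstream and 850 bp in the gene. A run of overlapping peaks over its first exon, from chr2:74506401 to 74507150, had 50 bp in the parental cells, against 700 bp (R100), 600 bp (R500), 200 bp (R1000) and 0 bp (R4000). This run is CpG-rich, with 10.4 CpG per 100 bp. By contrast the 300 bp from 400 to 101 bp before the TSS, with 28 CpG, a number reached by 7.25% of coding genes, had no peak in any line.

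Hoxd12, a partner of Hoxd13 in the hand and foot (ENSMUSG00000001823.4, chr2:74512986-74515763), was covered over 200 bp in the parental cells, against 965 bp (R100), 1250 bp (R500), 0 bp (R1000) and 100 bp (R4000). It is the only gene of the cluster with parental coverage of 150 bp or more and none in R1000. The gain in R100 (4.83 times) and R500 (6.25 times) lay mostly within 2 kb of the TSS, with 750 and 1115 bp there. At an equal number of peaks per list the difference in R100 from the parental line was 100 bp in place of 765 bp. With lists of equal covered length it was 0 bp, but no R100 peak of Hoxd12 could remain there. The widest was 300 bp and the cut was at 900 bp.

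Hoxd11, which acts with Hoxa11 in the forearm and kidney (ENSMUSG00000042499.10, chr2:74517449-74525798), was covered over 150 bp in the parental cells, against 2700 bp (R100), 2000 bp (R500), 598 bp (R1000) and 148 bp (R4000). The parental and R4000 lines are equal to within 2 bp, and the lines between them lie 3.99 to 18 times above the parental length. The gene's outer limits come from a non-coding transcript, and the protein-coding transcripts start further 3′, at 74520056 and 74520489. Within 1 kb of the non-coding start, coverage was 50, 1150, 499, 450 and 0 bp in the parental, R100, R500, R1000 and R4000 lines. Within 1 kb of the first coding start it was 450 bp in R100 and 0 bp in the other 4 lines. Peaks at the coding start of Hoxd11 were thus seen in 1 of the 5 lists. The 3′ end of the gene holds the stretch with the first sequence given above, with peaks in all 4 resistant lines.

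Hoxd10, which acts in the hindlimb and lumbar spinal cord (ENSMUSG00000050368.3, chr2:74529147-74533163), was covered over 250 bp in the parental cells, against 2050 bp (R100), 2900 bp (R500), 950 bp (R1000) and 100 bp (R4000). It had the largest covered length of the 9 genes summed over the lines (6250 bp), and R500 reached 32.2% of its window. Most of the gain lay upstream, with 100 bp in the parental cells, against 1300 bp (R100), 1896 bp (R500), 900 bp (R1000) and 100 bp (R4000). In R1000 most of it came from 1 peak of 650 bp, and counting the gene without its upstream 5 kb put R1000 below the parental line, by 100 bp.

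Hoxd9, which acts with its paralogues in the upper limb and lumbosacral region (ENSMUSG00000043342.8, chr2:74535737-74538265), was covered over 50 bp in the parental cells, against 900 bp (R100), 1164 bp (R500), 50 bp (R1000) and 0 bp (R4000). R100 and R500 stand clear of the other 3 lines, which all lie below the limit of 150 bp. In R100 the coverage was evenly divided, with 450 bp upstream and 450 bp in the gene, whereas in R500 it was 1050 bp upstream and 114 bp in the gene. The part of its window shared with that of Hoxd10 held 350 bp of peaks in R100 and 364 bp in R500, which are counted for both genes. When the lists were brought to equal number, the difference in R100 from the parental line was 300 bp in place of 850 bp, and in R500 614 bp in place of 1114 bp.

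Hoxd8, a gene of the central trunk (ENSMUSG00000027102.4, chr2:74542672-74545990), was covered over 0 bp in the parental cells, against 0 bp (R100), 150 bp (R500), 0 bp (R1000) and 0 bp (R4000). Its only peaks, 2 in R500, lie upstream, and it was called higher in R500 at the limit itself. Hoxd4, which acts in the hindbrain and neck vertebrae (ENSMUSG00000042464.6, chr2:74560035-74567217), had 1 peak of 50 bp in R500 and none in the other 4 lines. Hoxd1, the gene at the 3′ end, with a role in sensory neurons (ENSMUSG00000042448.3, chr2:74601037-74603200), had no peak in its window in any line. The peak nearest to its TSS lay at -10287 bp in R100 and at -11837 bp in R500, upstream of the gene. Hoxd1, Hoxd4 and Hoxd8 are thus the genes of the cluster without more than 150 bp in any list.

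Hoxd3, which acts in the neck vertebrae (ENSMUSG00000079277.2, chr2:74549986-74586331), contains Hoxd4 and breaks the 5′ to 3′ order. Its peaks covered 350 bp in the parental cells, against 1900 bp (R100), 2400 bp (R500), 350 bp (R1000) and 0 bp (R4000). Its window of 41.3 kb is the longest of the 9, so that the share covered was low, at 4.6% in R100 and 5.8% in R500. The long transcript's TSS was nearly free of peaks, with 100 bp in R100 and 50 bp in R500 within 1 kb and 0 bp in the other lines. The peaks sat instead in the 3′ part of the gene, mostly in introns, around the starts of shorter coding transcripts. With lists of equal number the difference from the parental line was 700 bp in R100 and 1050 bp in R500, in place of 1550 and 2050 bp. With lists of equal covered length it was -150 bp in both, but there R100 and R500 kept only peaks of at least 900 bp. No Hoxd3 peak of these lines could remain, since the widest were 450 bp (R100) and 750 bp (R500). Within 1 kb of the start at 74577676, coverage was 100 bp in the parental cells, against 526 bp (R100), 426 bp (R500), 0 bp (R1000) and 0 bp (R4000). At the start at 74574572 it was 0, 400, 329, 200 and 0 bp in the same order, with R1000 above the parental line.

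Summed by position, the gain therefore fell in separate blocks. From the start of Hoxd13 to the end of Hoxd9 (31.9 kb) peaks covered 550, 6050, 6300, 1650 and 200 bp in the parental, R100, R500, R1000 and R4000 lines. In the next 29.0 kb, from Hoxd9 to the end of Hoxd4, they covered 0, 100, 350, 50 and 0 bp. In the following 19.1 kb, to the end of Hoxd3, they covered 350, 1800, 2200, 300 and 0 bp, and in the last 16.9 kb, to the end of Hoxd1, 0, 200, 100, 0 and 0 bp. The stretch around Hoxd8 and Hoxd4, with little coverage in any line, thus lies between the 2 covered blocks. Outside the cluster, Evx2, the homeobox gene next to Hoxd13, had 750, 3900, 4050, 750 and 300 bp in its window, which overlaps that of Hoxd13 and shares 50, 484, 150, 100 and 0 bp of peaks with it. Evx2 was thus higher in R100 and R500 and lower in R4000. In R1000 it was at the parental length, while the block from Hoxd13 to Hoxd9 was above its own parental length. Beyond Evx2, the 73.6 kb up to Lnp held 150, 350, 600, 100 and 0 bp, and the 60.7 kb between Hoxd1 and Mtx2 held 150, 150, 50, 0 and 0 bp. The window of Lnp had 0 bp in all 5 lines, Mtx2 had 50 bp in R500 alone and Atp5g3, further off, 100 bp in R100 alone.

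The peaks of different lines overlapped in part. No base of the cluster was covered in all 5 lines, and the parental and R4000 lines shared 0 bp. R100 and R500 shared 3600 bp, which is 40.4% of the length in R100 and 38.7% of that in R500. The parental line shared 550 bp with R100, which is 55.0% of the parental and 6.18% of the R100 length. R1000 shared 1150 bp with R100 (54.8% of R1000 and 12.9% of R100), and R4000 shared 200 bp with R100 (50% of R4000 and 2.25% of R100). When touching or overlapping peaks of all lines were merged, 74 separate stretches resulted, of which 43 had a peak in 1 line, 19 in 2, 6 in 3 and 6 in 4. Over the whole lists R100 and R500 shared 48.6% of the R100 and 54.0% of the R500 length, more than in the cluster. The whole parental list shared 54.4% of its length with R100, close to the share in the cluster, and 24.8% with R4000. Whether these overlaps differ was not tested.

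On average, covered bins held more CpG than bins without a peak, a property that did not enter the choice of genes. Bins of 50 bp with a peak in any line held 4.14 CpG per 100 bp, and bins without a peak 2.54, with a GC content of 54.3% and 48.3%. The value was 3.95 in the 229 bins covered in 1 line, 4.43 in the 70 covered in 2, 5.33 in the 15 covered in 3 and 5.2 in the 5 covered in 4. The difference was present within blocks: from Hoxd13 to Hoxd9 it was 4.45 against 3.0, and in the 3′ part of Hoxd3 3.62 against 2.1. The uncovered bins from Hoxd9 to Hoxd4 held 2.55 CpG per 100 bp. By line, covered bins held 4.1 (parental), 5.08 (R100), 3.7 (R500), 3.76 (R1000) and 4.5 (R4000). Single covered stretches could hold few CpG. Those printed from the Hoxd11 3′ end to the Hoxd3 intron of R100 and R500 held 8, 5, 0, 2.33 and 2.5 per 100 bp, in that order. A stretch with more CpG could also be without a peak, as the one printed for Hoxd1, which holds 14 CpG in 300 bp where the median over all coding genes is 6. These values describe neighbouring bins of 1 locus, which are not independent, and were not tested.

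**Figure D3:**
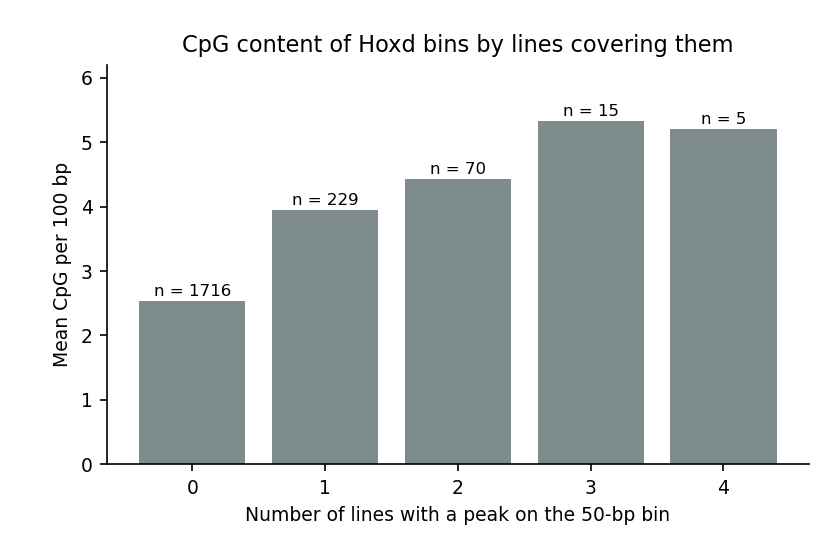
Mean number of CpG per 100 bp in the 50-bp bins of the Hoxd cluster, by the number of lines with a peak on the bin (n, number of bins). The bars rise from 2.54 in bins without a peak to 5.33 in those covered in 3 lines, and the last bar (5.2) rests on 5 bins.

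Peaks in the cluster lay in exons, in introns and between genes. Exons of the 9 genes make up 26.1% of the window, introns 35.5% and the rest 38.3%. In R100, 38.5% of the peak length was exonic and 29.7% intronic, and in R500 28.1% was exonic and 33.9% intronic. The share outside the genes was 31.8% (R100), 38.0% (R500), 54.9% (R1000) and 63.0% (R4000), the last over 400 bp only. Distances to the TSS differed between lines. R100 and R500 had a peak within 400 bp of the TSS of Hoxd13, Hoxd12, Hoxd11, Hoxd10, Hoxd9 and Hoxd3. The parental and R1000 lines each had a peak 99 bp from the TSS of Hoxd11, the start of a non-coding transcript. At Hoxd13 their nearest peaks were 384 bp (parental) and 434 bp (R1000) from the TSS. R100 and R500 also had more peaks. By their midpoints, 5 of 12 (parental), 13 of 48 (R100), 14 of 52 (R500) and 4 of 16 (R1000) peaks lay within 1 kb of a TSS. R4000 had only 4 peaks in the cluster, and the nearest to any TSS was 1015 bp away, at Hoxd12.

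Set beside the other Hox clusters, Hoxd had the lowest coverage and, in the full lists, the largest ratios in R100, R500 and R1000 and the smallest in R4000. In the parental line 0.982% of the Hoxd cluster was covered, against 2.85% of Hoxb, 13.5% of Hoxc and 31.1% of Hoxa. In R500 it was 9.13% of Hoxd, against 11.2, 39.1 and 42.7% of Hoxb, Hoxc and Hoxa. R100 was at 8.93 times the parental length in Hoxd, 4.43 times in Hoxb, 2.58 times in Hoxc and 1.38 times in Hoxa. This order is the reverse of the parental coverage. The parental length is the divisor of each ratio, so the 2 orders are not independent of each other. R4000 was at 0.4 times in Hoxd and at 0.814, 0.671 and 0.742 times in Hoxb, Hoxc and Hoxa. Of the length covered in the 4 clusters together, Hoxd made up 1.76% (parental), 7.39% (R100), 7.52% (R500), 3.74% (R1000) and 0.977% (R4000). The absolute gain in R100 was larger elsewhere, since Hoxc went from 16.2 to 41.9 kb and Hoxd from 1.0 to 8.93 kb. Lists of equal covered length cannot decide whether the place of Hoxd depends on the narrow peaks, since they were cut at unlike widths. The narrowest peak kept was 900 bp in R100 and R500, 150 bp in the parental line and R1000, and 50 bp in R4000. With lists of equal covered length the ratio in R100 was 7.67 in Hoxd, 2.0 in Hoxb, 0.708 in Hoxc and 1.16 in Hoxa. In the same order it was 5.67, 1.32, 0.897 and 0.902 in R1000. It was 0, 1.38, 1.03 and 1.11 in R500, and 2.67, 1.05, 0.862 and 0.783 in R4000. Hoxd was then lowest in R500, where no peak of the cluster could remain, and highest in R100, R1000 and R4000. The R100 ratio rests on 1 peak of 1150 bp against 1 parental peak of 150 bp.

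**Figure D4:**
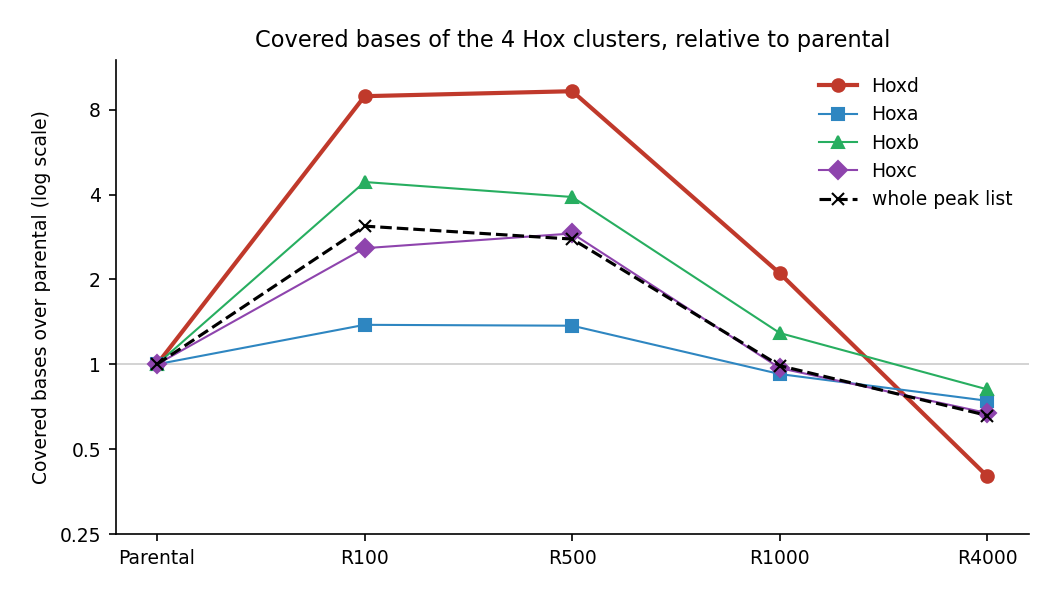
Covered bases of each Hox cluster and of the whole peak list in each line, divided by the parental value (log axis, 1 list per line). Hoxd lies above the other clusters and the whole list in R100 (8.93), R500 (9.3) and R1000 (2.1) and below them in R4000 (0.4). At equal covered length, where the lists were cut at unlike widths, it is at 7.67 (R100), 0 (R500), 5.67 (R1000) and 2.67 (R4000). No R500 peak of the cluster could remain there.

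Against their own paralogues, the genes of the same position group in the other clusters, the Hoxd genes were mostly the less covered. Covered length per kb of window was higher in the paralogue in 15 of 20 comparisons (parental), 18 (R100), 18 (R500), 16 (R1000) and 18 (R4000). Hoxd10 had 27.7 bp per kb in the parental line and 322 bp per kb in R500, and Hoxa10 had 512 and 809 bp per kb. Hoxd11 had 11.2 and 150 bp per kb in the same lines, against 598 and 840 in Hoxa11 and 103 and 447 in Hoxc11. Hoxd8 was at 18 bp per kb or less in each line, whereas Hoxb8 and Hoxc8 were between 295 and 487 bp per kb in R100 and R500. Paralogues below their Hoxd gene were Hoxb3 in every line but R4000, Hoxb13 in all 5 lines, and Hoxc13 in the parental and R1000 lines, where it had 23.6 and 39.3 bp per kb against 30.2 and 42.2 in Hoxd13. Hoxa4 was at 0, like Hoxd4, in the parental, R1000 and R4000 lines. Hoxd1 was below Hoxb1 in the 4 resistant lines, while both were at 0 in the parental line.

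**Figure D5:**
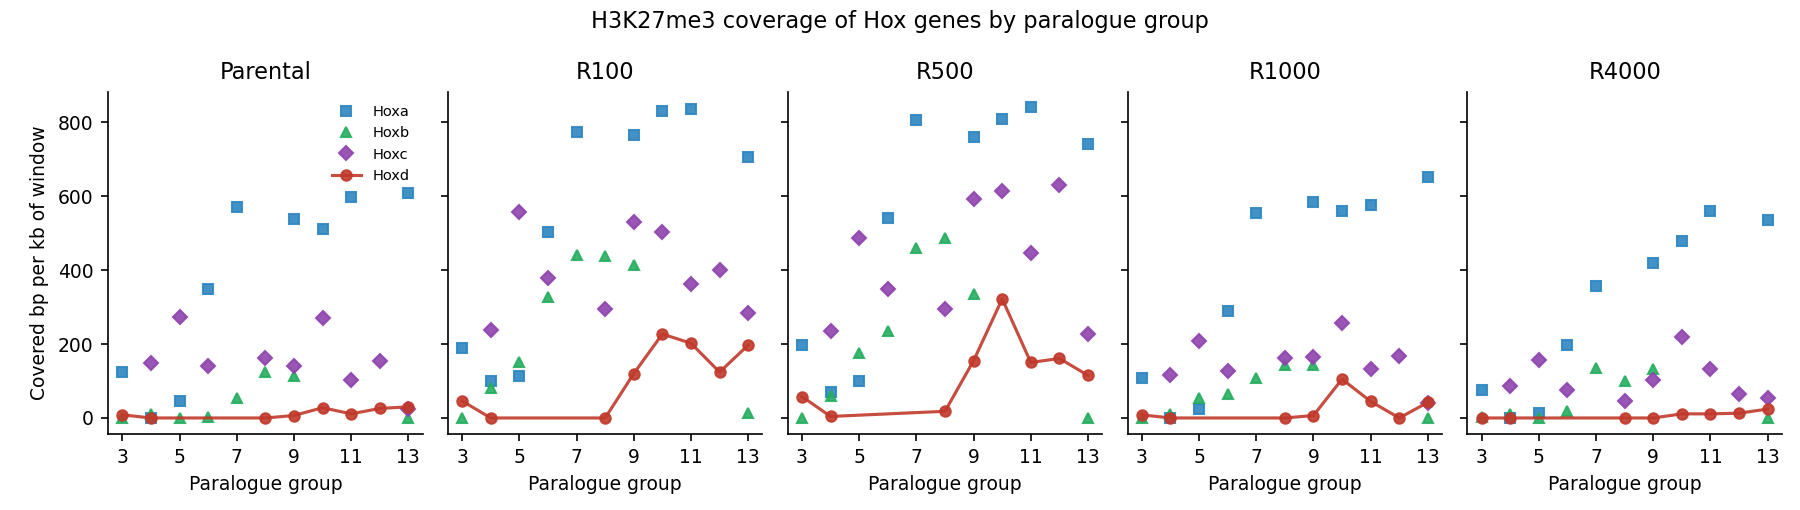
Covered bases per kb of gene window for the Hox genes of paralogue groups 3 to 13, by group and line, with the Hoxd genes joined by a line. Hoxa genes of groups 9 to 13 stay between 420 and 840 bp per kb in all 5 lines, while the Hoxd genes reach at most 322 bp per kb, at Hoxd10 in R500.

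Genes that act with or upstream of the Hoxd genes were covered in part. Of 9 genes for Hox cofactors of the Pbx, Meis and Pknox families, 2, 4, 4, 1 and 2 were covered in the parental, R100, R500, R1000 and R4000 lines, where 7.67, 21.7, 17, 8.87 and 7.05% of all coding genes were. Pbx3 was covered throughout, over 2050, 3350, 3350, 2650 and 1150 bp, and Meis2 over 250, 1850, 1150, 0 and 0 bp. Of 7 genes for retinoic acid receptors and enzymes, the signal that activates 3′ Hox genes in the embryo, 2, 3, 3, 2 and 2 were covered. Among these Rarg, a receptor, had 300, 3450, 3350, 1800 and 400 bp and Cyp26a1, which degrades retinoic acid, 0, 1750, 1700, 100 and 0 bp. Of 5 regulators of Hox genes 2, 3, 2, 2 and 2 were covered, led by Cdx2 with 1050, 3350, 3700, 750 and 450 bp. The median over each of these lists was at most 200 bp in any line, beside 965 and 1164 bp over the Hoxd genes in R100 and R500.

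Outside the Hox clusters, the coding genes with the most similar covered lengths were found by the summed absolute difference over the 5 lines. For Hoxd10 they were Bhlhe23 (700 bp), Mnx1 (850 bp) and Fzd7 (1200 bp). Mnx1, a homeobox gene of motor neurons, had 700, 2273, 2873, 950 and 250 bp in the parental, R100, R500, R1000 and R4000 lines. For Hoxd11 they were Gm996 (446 bp), Runx3 (500 bp) and Phpt1 (558 bp), of which Gm996 and Phpt1 are neighbours on chromosome 2 and share peaks. For Hoxd3 they were Ccdc40 (365 bp), Fev (568 bp) and Fa2h (600 bp). The likeness is over 5 lists only, and windows were of different length, such as 62.3 kb for Runx3 and 13.3 kb for Hoxd11.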

How the data were processed

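The series holds 5 H3K27me3 ChIP-seq and 5 RRBS samples of the same lines, and the RRBS samples were not analysed here. Values of some single genes are not reported here. The authors precipitated chromatin with an antibody to H3K27me3, sequenced 50-bp reads and called peaks against input by Poisson statistics. They deposited 1 list of peak positions per line, in base pairs, with no other value. The submitters' processing notes name Bowtie and mm9. The study's methods give a p-value limit for enriched promoters, which is not stated to be that of the lists, and the study describes biological replicates, which the lists do not separate. Whether a list pools them is not given in the sources used here. Narrow gaps and narrow peaks depend on the calling limit and on depth, which are unknown.

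In the lists of R100 and R500 all entries occur 2 times, and duplicates were dropped. Covered bases were counted in Python 3.11.15 (numpy 2.4.6, pandas 2.3.3) against the GENCODE M1 annotation of NCBIM37, sequence was read with pysam 0.24.0 and figures were drawn with matplotlib 3.10.9. The counting was tested on simulated data, where 0 of 2000 windows differed from a base-by-base count. Samples were grouped by their titles. With 1 list per line no test was made. Shares of all 22367 protein-coding genes called by the same rule stand beside the counts of Hoxd genes by the main rule, not by the alternatives.

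The genes named are the 9 Hoxd genes, their neighbours, cofactors and regulators by symbol, Hox paralogues, and the 3 most similar coding genes for each of the 3 Hoxd genes with most covered bases. The genes and lists were chosen with earlier results of these data known. Alternatives changed the peak width, the number or total length of peaks, the joining of peaks, the gene window, the minimum and the fold. The first coding transcript as TSS and the counting of each base for 1 gene were added after seeing the data.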

Additional observations from a re-analysis of the deposited data

Results flagged for a closer look

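The 4 resistant lines moved in opposite directions relative to the parental line, which drew attention to the cluster and to 3 of its genes. None of these differences was tested, since each line has 1 list. In the whole Hoxd cluster the difference in covered length from the parental line was 7934 bp (R100), 8300 bp (R500), 1100 bp (R1000) and -600 bp (R4000). Hoxd10 followed the same signs, with 1800 (R100), 2650 (R500), 700 (R1000) and -150 bp (R4000). Hoxd12 differed by 765 bp in R100 and 1050 bp in R500, and by -200 bp in R1000 and -100 bp in R4000. Hoxd3 differed by 1550 bp (R100), 2050 bp (R500) and -350 bp (R4000), with no difference in R1000. The whole peak list moved in the same way in R100, R500 and R4000, at 3.09, 2.78 and 0.658 times the parental length. The part of list size and depth in these differences was not tested.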

How the results depend on the processing

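No paired analysis was possible because each line has 1 list. The gains of the cluster in R100 and R500 kept their direction with wider peaks, lists of equal number, joined peaks and no upstream part. With lists of equal covered length they kept it in R100 but not in R500, where no peak of the cluster could remain. Lists of equal number and of equal covered length were both cut at unlike widths. The other alternatives were run on single genes and their counts only, and the cause of each change listed here was not tested. Of the counts of Hoxd genes 114 values stayed within 1.5 times and 37 moved. Of the differences of single genes from the parental line 193 stayed, 126 moved and 5 changed sign at a gene called higher or lower. A change of sign without such a call counts as moved. Hoxd13 in R4000, for example, went from -50 bp to 100 bp with lists of equal number. Values of 0 that remained 0 count as stayed, as for Hoxd1 throughout.

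With lists of equal covered length (1.07 Mb), covered genes numbered 1 (parental), 1 (R100), 0 (R500) and 2 (R1000). R100 and R500 kept only peaks of at least 900 bp, so no R500 peak of the cluster could remain and only 1 of R100. Higher genes then numbered 1 in R100, 0 in R500 and 1 in R4000, and lower genes 1 each in R100, R500 and R4000. The cluster had 150 bp in the parental cells, 1150 bp (R100), 0 bp (R500) and 850 bp (R1000), and ratios of 0 in R500, 5.67 in R1000 and 2.67 in R4000. Among genes called higher or lower, differences from the parental line turned to 100 bp for Hoxd12 and Hoxd10 in R4000. For Hoxd3 they turned to -150 bp in R100 and R500. The ratio became 1.05 for Hoxb in R4000 and 0.708 for Hoxc in R100.

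With lists of equal number (6820 peaks), 3 genes were covered in the parental line, 1 was higher in R4000, and the cluster had 5834 bp in R100. With peaks of at least 200 bp, covered genes were 0 in the parental line, 2 in R1000 and 0 in R4000, lower genes 0 in R1000 and R4000, and the cluster had 0, 5834, 850 and 0 bp in the parental, R100, R1000 and R4000 lines, with no ratio. With peaks within 1000 bp joined, the cluster had 2150, 23634, 25600 and 5500 bp in the parental, R100, R500 and R1000 lines, 2 genes were lower in R1000, and Hoxc had a ratio of 1.06 in R1000.

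With the 5 kb upstream alone, 1 gene was covered in the parental line and 2 in R1000, 1 was higher in R4000, and 0 were lower in R1000 and R4000. Within 2 kb of the TSS 2 were covered in the parental line and 0 in R4000, and 0 were lower in R1000. Without the upstream part 3 were covered in the parental line and 0 in R4000, 1 was higher in R1000, Hoxd10 differed by -100 bp in R1000, and the cluster had 200 bp in R4000, a ratio of 0.222. With a minimum of 50 bp 4 genes were covered in R4000. With 500 bp, 0, 2 and 0 were covered in the parental, R1000 and R4000 lines and 0 were lower in R1000 and R4000. With each base counted for 1 gene, 3 were covered in the parental line and 0 were lower in R1000.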

Other observations

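Other genes of the Hoxd locus lie among the same peaks. Gm20440, a non-coding gene that overlaps Hoxd11 and Hoxd10, was covered over 300 bp in the parental cells, against 3800 bp (R100), 3600 bp (R500), 1400 bp (R1000) and 100 bp (R4000), all of it within the windows of those genes. Gm14396, between Hoxd10 and Hoxd9 and within their windows, was covered over 150, 750, 1650, 50 and 0 bp in the same order of lines. Mir10b, the microRNA gene within Hoxd4, had 0 bp in all 5 lines, like the gene around it in all but R500. The antisense gene 6720416L17Rik, next to Hoxd1, had 200 bp (R100), 100 bp (R500) and 0 bp in the other lines.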
